A study of Mus musculus with 6 samples.

Results

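Genes of the fibroblast growth factor (FGF) and ERK pathway were examined for peaks of H3K56ac, acetylation on lysine 56 of histone H3, in mouse embryonic stem cells (mESC). The 10 genes were the ligand *Fgf4*, the receptors *Fgfr1* and *Fgfr2*, the feedback inhibitors *Spry2*, *Spry4*, *Spred1* and *Dusp6*, and the nuclear targets *Etv4*, *Etv5* and *Egr1*. They were chosen by name from 21938 protein-coding genes, and every merged peak that touched a gene body or the 40 kb on either side of it was taken. This gave 44 of 11106 peaks.

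V6.5, a mESC line, was grown on feeder cells with LIF and infected with lentivirus for an shRNA, either scrambled (Scramble, the control) or directed at *Sirt6* (*Sirt6* KD), the gene of a deacetylase that acts on lysine 56. H3K56ac ChIP-seq comprised 2 libraries from Scramble and 2 from *Sirt6* KD cells, with 1 input DNA library of each. The values analysed here were the positions of 1 merged peak set on mm10, which carried no value for a library or a group, and its score was 0 throughout. The set therefore had no replicates, the depth behind a peak is unknown, and nothing below compares *Sirt6* KD with Scramble.

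FGF ligands bind receptor tyrosine kinases, which signal through adaptor proteins and RAS to the kinases RAF, MEK and ERK. Active ERK turns on early genes and ETS factors, together with Sprouty, SPRED and dual-specificity phosphatase genes whose products dampen the cascade. In mESC, autocrine FGF4 is the best known stimulus of ERK, and this signal prepares the cells to leave the pluripotent state.

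Stretches of DNA at 4 starts show the range of positions a peak took. They are the 250 bases before the RefSeq start of each gene on GRCm38, the assembly behind mm10, written along the gene from 5′ to 3′ with each CG pair in capitals. A median promoter of the 32851 in the same RefSeq table held 6 such pairs. The table matched 6 of the 10 genes and had no entry for *Fgfr1*, *Etv4*, *Spry4* and *Egr1*.
*Dusp6* (chr10:99262981-99263230, plus strand), all 250 bases inside a peak and 16 CG pairs: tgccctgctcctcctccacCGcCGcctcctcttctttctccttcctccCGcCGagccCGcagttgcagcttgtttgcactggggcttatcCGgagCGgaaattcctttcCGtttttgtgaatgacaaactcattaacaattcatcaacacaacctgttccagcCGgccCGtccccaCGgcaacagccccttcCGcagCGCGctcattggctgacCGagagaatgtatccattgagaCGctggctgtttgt
*Spry2* (chr14:105896820-105897069, minus strand), 192 bases inside a peak and 23 CG pairs: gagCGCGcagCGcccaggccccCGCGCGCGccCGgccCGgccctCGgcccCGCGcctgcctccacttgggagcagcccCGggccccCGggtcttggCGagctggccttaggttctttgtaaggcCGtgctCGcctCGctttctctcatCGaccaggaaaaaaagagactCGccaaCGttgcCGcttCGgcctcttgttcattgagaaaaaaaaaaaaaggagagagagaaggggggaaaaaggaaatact
*Spred1* (chr2:117120821-117121070, plus strand), 0 bases inside a peak and 31 CG pairs: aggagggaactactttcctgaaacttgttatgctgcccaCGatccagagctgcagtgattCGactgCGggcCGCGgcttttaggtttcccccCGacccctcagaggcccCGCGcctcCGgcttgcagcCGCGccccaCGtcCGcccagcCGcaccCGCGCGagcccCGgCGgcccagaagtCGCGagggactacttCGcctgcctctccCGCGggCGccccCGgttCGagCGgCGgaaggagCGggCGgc
*Fgfr2* (chr7:130266809-130267058, minus strand), 0 bases inside a peak and 2 CG pairs: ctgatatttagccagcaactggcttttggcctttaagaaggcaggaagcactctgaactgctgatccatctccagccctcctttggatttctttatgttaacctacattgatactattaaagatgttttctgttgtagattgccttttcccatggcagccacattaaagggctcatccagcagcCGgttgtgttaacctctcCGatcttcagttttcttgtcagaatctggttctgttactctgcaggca
The *Spred1* stretch was the richest of these in CG and lay wholly in a gap between 2 peaks, while the *Dusp6* stretch lay wholly under 1 wide peak.

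Most of these genes carried H3K56ac at a start site. A peak base lay within 1 kb of a transcription start site (TSS) of 9 of the 10 genes, *Fgfr1* being the exception, against 35.7% of all protein-coding genes. With the stricter demand that the peak midpoint lie within 1 kb, 7 genes were left, against 33.9% of all genes. *Fgf4* and *Spry2* dropped out because their peaks reached far into the gene. *Etv4* stayed only through a peak of 692 bp near an internal TSS, since the midpoint of its upstream peak lay 1275 bp before the reference start. *Spred1* likewise stayed only through another annotated TSS, with midpoints 1436 bp before and 1180 bp after the reference start. All 10 starts were rich in CpG, with an observed to expected CpG ratio of over 0.6 in the 500 bp on either side, from 0.714 at *Egr1* to 1.01 at *Spred1*, while 47.6% of all genes passed this ratio. *Fgfr2* reached 0.927 around the reference start, that of the principal transcript of the annotation, which lies 617 bp inside the RefSeq start whose upstream bases are printed above with few CG pairs. Of all genes with such a start 60.2% had a promoter peak, and the Wilson 95% interval of the share of the 10 genes, 59.6% to 98.2%, takes in this value.

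The choice of annotation changed the number of peaks at 1 gene. In GENCODE M21 the body of *Fgfr2* spans 2960900 bp, because 1 of its transcripts starts near *Ctbp2*, and 18 of the 44 peaks fell in that window. All 18 lay within 1 kb of a TSS of a protein-coding gene, and 17 were outside the 104358 bp body that RefSeq gives *Fgfr2* and its flanks. These 17 belonged to starts such as *Ate1*, *Tacc2*, *Bub3* and *Ctbp2*. With RefSeq bodies for all 10 genes, a choice made after the data were seen, 27 peaks with a summed width of 50029 bp were left, and the loci are described by these. Of them 12 lay at a TSS of the gene itself, 2 at the start of another protein-coding gene (*Letm2* beyond *Fgfr1* and *Dhx8* beyond *Etv4*), and 13 at neither.

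Peaks at these genes' own starts had a larger median width than those elsewhere in the windows, as in the whole set. The 12 start peaks had a median width of 2020 bp and the 13 other peaks one of 820 bp, ranging from 293 to 5373 bp. Over the whole set, peaks near a TSS had a median of 1162 bp and those away from one 630 bp. By the rule of any base within 1 kb, a wide peak also reaches a start more readily than a narrow one. The median of the 27 peaks was 1188 bp, that of the 44 peaks 1115 bp and that of all peaks 913.5 bp. Of the 27 peaks 6 were 3 kb or wider, against 6.83% of all peaks.

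**Figure D1:**
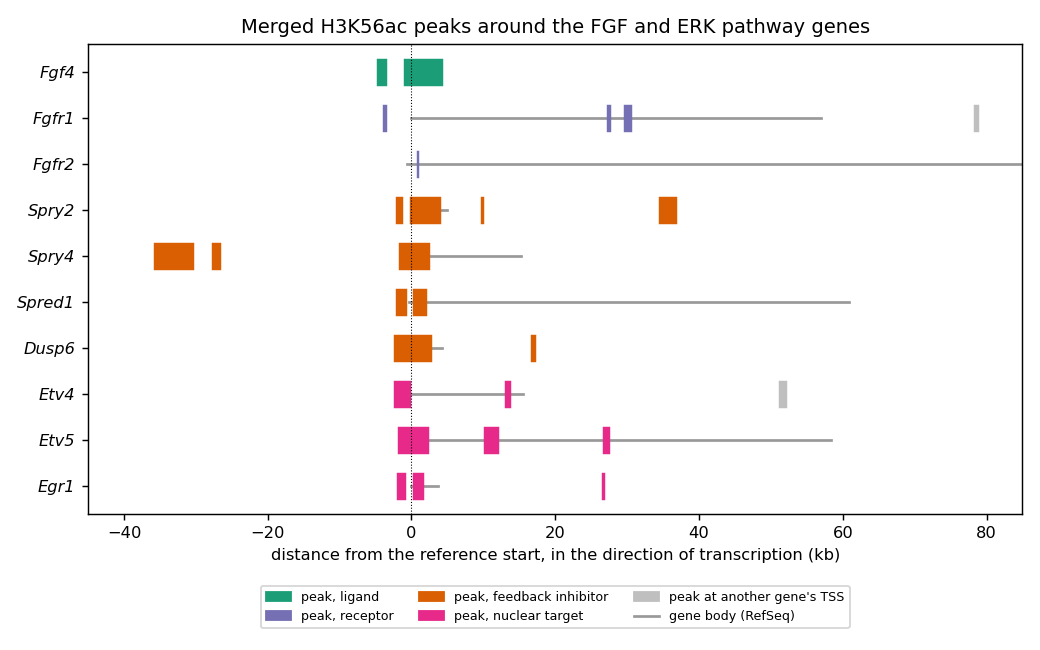
Positions of the 27 merged H3K56ac peaks around the 10 genes, with distance from the reference start in kb along the direction of transcription on the horizontal axis and 1 gene per line. Coloured blocks are peaks by the role of the gene, grey blocks are the peaks at *Letm2* and *Dhx8*, and grey lines are RefSeq gene bodies; *Spry4* has a 5373 bp block far upstream of its start, and *Fgfr2* has a single block of 259 bp.

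*Fgf4*, which encodes the ligand, had the widest start peak of the 10 genes. It measured 5310 bp (chr7:144860276-144865585), began 1110 bp before the start and ended 4199 bp after it, and so covered the whole RefSeq gene of 3860 bp. Distances are given from the reference start. A second peak of 1334 bp lay 4201 bp upstream, measured from its midpoint, with a gap of 2423 bp between the pair. Joined across gaps of less than 10 kb, they formed a chain of 6644 bp of peak, wider than 98.3% of the 8892 chains of the whole set. The gene therefore lay under 1 merged peak from before its start to past its end. Whether this interval joins several called peaks cannot be told from merged positions.

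The 3′ untranslated part of *Fgf4* is known for an enhancer that SOX2 and OCT4 bind together. The wide peak held a match to a SOX element, CNTTGT, followed by an octamer-like element, ATGCNAAT, in the untranslated part of exon 3, beginning 3008 bp after the start. It is shown with the 2 elements in capitals because no other peak near these genes held such a pair.
*Fgf4* exon 3, chr7:144864389-144864416, plus strand: aaactCTTTGTttggATGCTAATgggat
The spacer between the elements, as the letters above define them, is 4 bases long, and a SOX element written with more letters would leave a shorter one. The search as first set allowed at most 3 bases and found no pair in any peak of the 10 genes. Over full widths that search made 3 matches in all peaks, and in the central 400 bp it matched 0.00900% of all peaks. The longer spacer was allowed after the data were seen, and with it 5 of all peaks, or 0.0450%, held a match over their full width.

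The receptors had the least peak cover of the 10 genes. *Fgfr1*, the main FGF receptor gene of mESC, had 4 peaks and none within 1 kb of any of its 18 TSS. The nearest, of 414 bp (chr8:25514733-25515146), ended 3613 bp before the reference start. It lay inside the GENCODE body of the gene, just over 1 kb after the 5′ end of that body at 25513654. Peaks of 405 and 876 bp lay in intron 2, 27376 and 30032 bp after the start by their midpoints, and one of 575 bp lay at the start of *Letm2*. At *Fgfr2* the single peak was 259 bp wide (chr7:130265230-130265488), in intron 1 and 703 to 961 bp after the start. Of all genes with a peak at the reference start, 0.815% had a narrower one. Each of the 5 *Fgfr1* and *Fgfr2* peaks was narrower than the median of all peaks.

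The Sprouty genes encode inhibitors of receptor tyrosine kinase signalling that ERK itself induces, and both loci were broadly covered. *Spry2* had a start peak of 4120 bp (chr14:105892892-105897011), from 192 bp before the start to 3927 bp after it, with its midpoint in intron 1. A peak of 820 bp lay 1761 bp upstream of the start, one of 293 bp lay 9837 bp downstream and one of 2371 bp lay 35650 bp downstream, the last at a start of the noncoding gene *Gm48970*. *Spry4* had a start peak of 4152 bp (chr18:38599001-38603152), from 1737 bp before to 2414 bp after the start. Its widest peak was not at the start. It measured 5373 bp with the midpoint 33106 bp upstream, and was wider than 99.1% of all peaks. A peak of 1080 bp, 27238 bp upstream, was separated from it by 2641 bp. The 1080 bp peak and the start peak lay at starts of the noncoding gene *AC133601.1*. The upstream pair summed to 6453 bp and exceeded 98.2% of chains.

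*Dusp6*, which encodes a phosphatase that removes the activating phosphates of ERK, had a start peak of 5160 bp (chr10:99260788-99265947). It extended 2443 bp before and 2716 bp after the start, with the midpoint in the untranslated part of exon 1, and covered the stretch shown above. The other peak, of 606 bp, lay 16887 bp after the start. *Spred1*, whose product holds back RAF activation, had no wide peak. A peak of 1328 bp ended 772 bp before the start and one of 1804 bp in intron 1 began 279 bp after it, so that the start fell in a gap of 1050 bp. The RefSeq start of *Spred1*, farther upstream, lay in the same gap.

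The nuclear targets differed among themselves. *Etv5*, which encodes an ETS factor of the PEA3 group, had a start peak of 4209 bp (chr16:22437448-22441656), from 1937 bp before to 2271 bp after the start. It also had a peak of 1901 bp in intron 5, 11067 bp after the start, and one of 780 bp in intron 6, 27060 bp after it. *Etv4*, of the same group, had a peak of 2236 bp that ended 158 bp before the start and one of 692 bp at coding exon 9 of 13, which lay within 1 kb of an internal TSS. *Egr1*, an immediate-early zinc finger gene, had a peak of 1188 bp that ended 878 bp before the start and one of 1381 bp that began 266 bp after it, with a gap of 1143 bp. A narrow peak of 317 bp lay 26674 bp downstream.

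Start sites thus took 4 positions relative to the peaks. The reference start lay inside a peak at 5 genes (*Fgf4*, *Spry2*, *Spry4*, *Dusp6* and *Etv5*) and in no peak at the other 5, whereas 80.0% of all genes had it in no peak. It lay between 2 peaks that both came within 1 kb at 2 genes (*Spred1* and *Egr1*), against 0.661% of all genes, or 145. Only 7363 of all genes had any peak within 1 kb of the reference start and so could be counted here. The remaining starts of the 10 genes had a peak within 1 kb on 1 side (*Etv4* and *Fgfr2*) or none within 1 kb (*Fgfr1*). The gaps at *Spred1* and *Egr1* were close to the smallest gap in the whole set, 1000 bp, below which no neighbouring peaks stood apart. These positions hold for the reference start, and another annotated start of *Egr1*, farther upstream, lay inside its peak of 1188 bp.

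**Figure D2:**
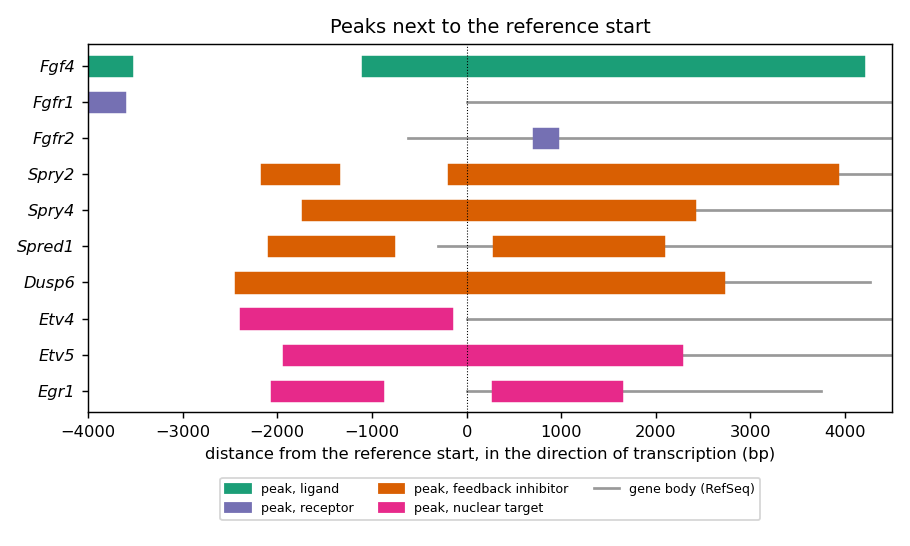
Peaks next to the reference start of the 10 genes, with distance from the start in bp on the horizontal axis and 1 gene per line; blocks are peaks by the role of the gene and grey lines are RefSeq gene bodies. A single block crosses the start at *Fgf4*, *Spry2*, *Spry4*, *Dusp6* and *Etv5*, while *Spred1* and *Egr1* have a block on either side of gaps of 1050 and 1143 bp.

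The widths of the merged start peaks fell into a wide and a narrower group. No neighbouring peaks of the merged set stood less than 1000 bp apart, so a width may include joined peaks and the bases between them. The same 5 genes whose start lay inside a peak had a peak of at least 3 kb there, against 3.07% of all genes. Their widths ran from 4120 bp at *Spry2* to 5310 bp at *Fgf4*. A wide peak near a start is more likely to cover it, so the groupings by width and by position are not independent. Among all genes with a peak within 1 kb of the reference start, 33.6% of genes, the median of the widest such peak was 1357 bp and the 90th percentile 2905 bp. The 9 genes had a median of 4120 bp. The peaks at *Fgf4* and *Dusp6* were wider than those of 98.9% and 98.8% of these genes, and those at *Etv5*, *Spry4* and *Spry2* than 97.6%, 97.5% and 97.4%. *Etv4* followed at 77.0%, *Spred1* at 63.6% and *Egr1* at 50.7%, so that *Egr1* stood at the middle of all genes with a start peak. No gene of the 10 had a start peak between 2236 and 4120 bp.

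**Figure D3:**
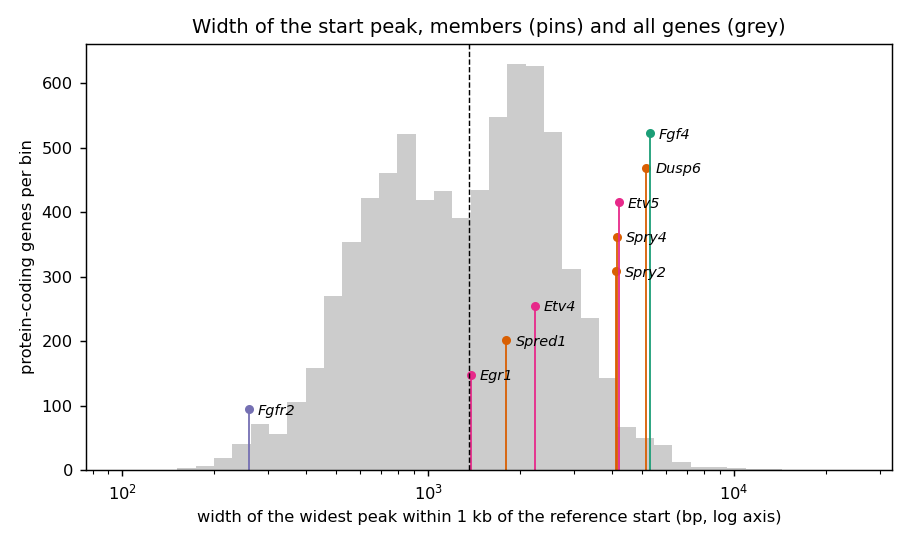
Width of the widest peak within 1 kb of the reference start, in bp on a log axis, for all protein-coding genes with such a peak (grey bars, number of genes per bin) and for 9 of the 10 genes (pins, whose height has no meaning). The dashed line is the median of all genes, 1357 bp; pins for 5 genes stand between 4120 and 5310 bp, *Egr1* stands beside the median and *Fgfr2* at 259 bp.

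Peak cover of the neighbourhood, which includes the start peak itself, put the same 5 genes first but in another order. Within 40 kb of the reference start, peaks covered 10605 bp around *Spry4*, more than around 98.8% of all genes. The cover was 7604 bp around *Spry2*, 6890 bp around *Etv5*, 6644 bp around *Fgf4* and 5766 bp around *Dusp6*, all 5 above the 90th percentile of 4771 bp. *Spred1* with 3132 bp, *Etv4* with 2928 bp and *Egr1* with 2886 bp differed by little and lay above about the same share of genes (81.1%, 79.6% and 79.3%). *Fgfr1* had 1695 bp and *Fgfr2* 259 bp, the latter below the median of all genes of 516 bp. The median of the 10 genes was 4449 bp. No peak at all lay within this distance of 45.4% of genes.

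**Figure D4:**
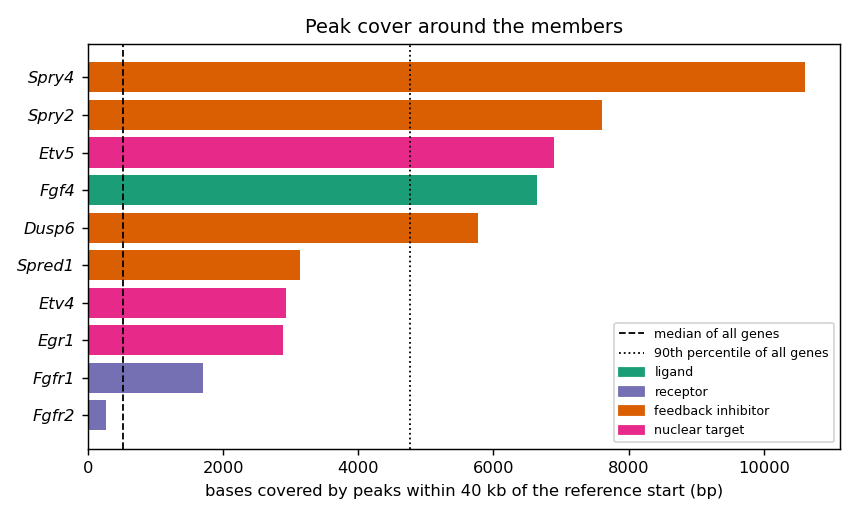
Bases covered by merged peaks within 40 kb of the reference start, in bp, for each of the 10 genes as bars from 0 coloured by role. The dashed line is the median of all protein-coding genes (516 bp) and the dotted line their 90th percentile (4771 bp); 5 bars pass the dotted line, and the bar of *Fgfr2* ends short of the dashed one.

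Across the rest of the pathway, promoter peaks were found at most genes of the kinase cascade and most inhibitors, and at 1 ligand. Of 72 further genes listed by role 71 were found in the annotation (*Spry3* was not), and 33 had a promoter peak, 46.5% (35.4 to 58.0), compared with the 35.7% of all genes. Ranges in parentheses are Wilson 95% intervals and cover counting error only. Among the 56 of these genes with a CpG-rich start, 31 had a peak, 55.4% (42.4 to 67.6), which is no more than the 60.2% of all genes with such a start. Of the 21 other ligands only *Fgf11* had one, of 723 bp, and its start was not CpG-rich. Of the 10 ligands with CpG-rich starts 0 had one (0 to 27.8), against 60.2% of all genes with such starts. None of the 5 other receptors and co-receptors had one (0 to 43.4), an interval that takes in 35.7%. Of these 5 genes 4 had CpG-rich starts, and their interval (0 to 49.0) does not reach 60.2%.

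Adaptors and exchange factors, which link receptors to RAS, had a promoter peak at 5 of 8 genes, all 8 with CpG-rich starts. The share, 62.5% (30.6 to 86.3), is near the 60.2% of all genes with such starts. The widest were 5896 bp at *Shc1*, in a promoter shared with *Cks1b*, and 2085 bp at *Ptpn11*, which encodes the phosphatase SHP2. In the kinase cascade from RAS to the ERK-activated RSK kinases 11 of 14 had one, among them *Rps6ka1* with 2607 bp, and none reached 3 kb. All 14 had CpG-rich starts, and the interval of their share (52.4 to 92.4) takes in 60.2%. *Braf*, *Ksr1* and *Rps6ka3* had none. The peaks of this group were thus all narrower than those at the starts of *Dusp6* and *Spry4*.

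Other negative regulators had a promoter peak at 9 of 11 genes. *Dusp4*, a nuclear ERK phosphatase gene, had 5133 bp, *Spred2* 3249 bp and *Nf1*, which encodes a RAS GTPase activator, 2280 bp, while the other 6 had between 400 and 1012 bp. Of the 9 with CpG-rich starts 8 had one, with an interval (56.5 to 98.0) that takes in 60.2%. *Spry1* and *Dusp9* had none. Other nuclear targets and effectors had one at 7 of 12 genes, led by the immediate-early genes *Ier2* with 6524 bp and *Fos* with 2466 bp and by *Etv1*, the third PEA3 group gene, with 3181 bp. Of the 11 with CpG-rich starts 7 had one, 63.6% (35.4 to 84.8). *Egr2*, *Egr3*, *Elk1*, *Elk3* and *Fosl1* had none. The 3 PEA3 group genes all had a start peak, whereas of the EGR genes listed *Egr1* had peaks and *Egr2* and *Egr3* did not.

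**Figure D5:**
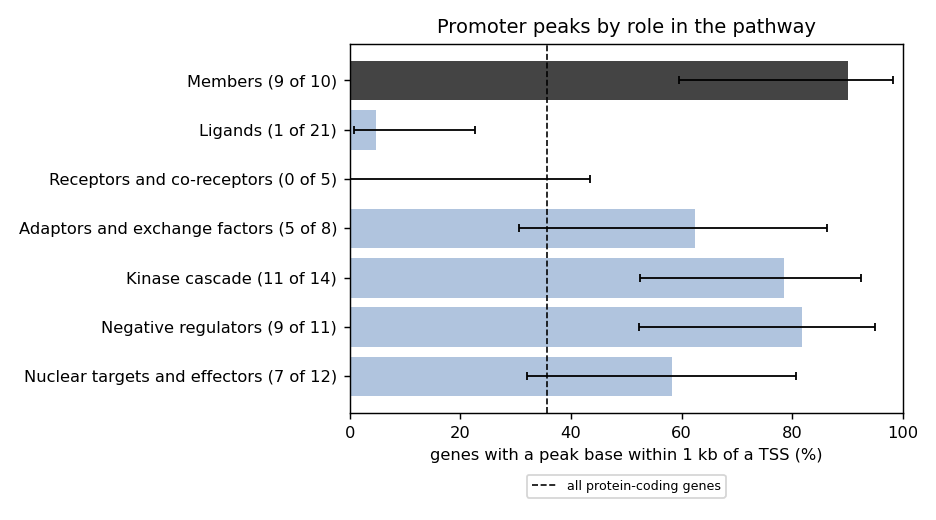
Share of genes with a promoter peak, in percent, for the 10 genes (dark bar, named members) and for 71 further pathway genes by role (blue bars), with Wilson 95% intervals as error bars that cover counting error only. The dashed line is the share of all protein-coding genes, 35.7%; the ligands reach 1 of 21 and the receptors 0 of 5, while the kinase cascade reaches 11 of 14 and the negative regulators 9 of 11.

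Promoter peaks were also counted at markers of the labelled cell type. All 8 listed genes of embryonic stem cells, among them *Pou5f1*, *Sox2* and *Nanog*, had one, against 35.7% of all protein-coding genes. None of 8 fibroblast genes, listed because the cells grew on feeder cells, had one. Only 1 of these 8 had a CpG-rich start, against 4 of the 8 stem cell genes, so their lack of peaks says little about feeder cells.

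Motifs of factors at the end of the pathway were counted at the middle of these peaks, where their shares were near those of all peaks. An ETS core, CCGGAAG, searched on both strands, lay in the central 400 bp of 2 of the 27 peaks (*Spry2* upstream and *Egr1* downstream of the start), 7.41% (2.06 to 23.4), against 10.1% of all peaks. Of the 44 peaks, 6.82% held one. An AP-1 site, TGANTCA, lay there in 2 of the 27 peaks, at *Fgf4* upstream and *Spred1*, with the same share and interval, against 9.19% of all peaks. A CArG box, to which SRF binds, lay there in none, against 1.66%, and an octamer-like ATGCNAAT in none, against 3.23%, and 0 of 27 allows a share of up to 12.5%. Counted over their full width, the 27 peaks had 0.160 ETS cores per kb (0.237 in all peaks), 0.160 AP-1 sites per kb (0.253 in all), 0.0600 CArG boxes per kb (0.0519 in all) and 0.160 octamer-like matches per kb (0.0926 in all). These rates rest on 8 ETS, 8 AP-1, 3 CArG and 8 octamer-like matches. The octamer-like element of the *Fgf4* pair shown above is counted among them.

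The matches were unevenly spread over the peaks. The upstream *Spry4* peak of 5373 bp held 4 of the 8 AP-1 sites and no other peak more than 2. The *Dusp6* start peak held 2 of the 3 CArG boxes, together with an ETS core and an octamer-like match, within 190 bases at its upstream end. This stretch lies 1920 to 1731 bp before the start and is shown with the matches in capitals, in the order CArG, CArG, ETS and octamer-like.
*Dusp6*, chr10:99261311-99261500, plus strand: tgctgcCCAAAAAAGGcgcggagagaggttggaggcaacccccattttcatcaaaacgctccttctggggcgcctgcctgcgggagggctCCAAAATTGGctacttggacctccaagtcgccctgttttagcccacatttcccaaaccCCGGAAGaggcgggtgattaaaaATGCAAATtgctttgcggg
Over all peaks, 0.387% held 2 or more CArG boxes and 0.450%, or 50 peaks, held all 3 kinds of match somewhere in their width. The *Dusp6* peak was wider than 98.9% of all peaks and so had more room for matches. Its stretch was picked after the matches were seen, and peaks of like width were not compared. A match is only a run of letters, and whether a factor binds it was not measured here.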

How the data were processed

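V6.5 mESC carried a scrambled or a *Sirt6* shRNA, and groups came from the sample titles. The authors aligned trimmed 75-base reads to mm10 with bowtie, keeping reads with a single location, removed duplicates, used MACS2 to call peaks, dropped those in blacklisted regions and merged the rest, which hides the library and the strength of each. The deposited file held positions of merged peaks, with a score column that was 0 throughout. The authors' counts per peak are not analysed here.

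Positions counted from 0 were converted to count from 1. Genes were taken from GENCODE M21 and, for bodies and sequences, RefSeq on GRCm38. A promoter peak had any base within 1 kb of a TSS. The genes, lists and motifs were chosen with earlier results of these data known, so no test was run. Shares are set beside those of all genes or peaks. Named were the 10 genes, each with its widest peak, its nearest peak and gaps, protein-coding genes whose TSS lay at a peak of these windows and, from a list of further pathway genes by role, those with wide promoter peaks or with none. Some genes of that list are not reported here by name. Scripts were tested on simulated data. Python 3.11.15, numpy 2.4.6, pandas 2.3.3, scipy 1.17.1 and pysam 0.24.0 were used.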

Additional observations from a re-analysis of the deposited data

How the results depend on the processing

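Of 25 alternatives on 6 results, 21 left a count within 1.5 times of that given, or a median or share within its 95% interval. With peaks counted up to 3 kb from a TSS, *Fgfr1* joined and all 10 genes had one. The number of further pathway genes with a promoter peak fell to 19 when only peaks at least as wide as the median of all peaks were counted. The number of peaks around the 10 genes was 27 with RefSeq bodies and 26 without *Fgfr2*, both added after the data were seen, and a spacer of up to 4 bases, also added then, gave 1 SOX-OCT pair in place of 0. An ETS core lay in the central 200 bp of 4.55% of the 44 peaks (5.39% of all) and in the central 1000 bp of 13.6% (21.7% of all). No paired analysis was possible because single libraries have no value in the merged set. Whether a gene without a peak lacks H3K56ac or the depth was too low cannot be told from positions alone.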
